A study of Mus musculus with 24 samples.

Results

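FcRγ-deficient (KO) natural killer (NK) cells from mouse lungs that bore a tumour were set against KO NK cells that came from spleen and were treated with interleukin-15 (IL-15). The 8 libraries of these groups, 4 from KO lung and 4 from KO IL-15 spleen, were taken by the genotype, tissue and treatment in their labels, out of 24 libraries in the series. FcRγ is the product of Fcer1g, and both groups carry the KO. The lung libraries are labelled KO, tumour-bearing lung and naive, so they received no IL-15 treatment by their labels, and the spleen libraries KO, spleen and IL-15 treated. The other 16 libraries are KO naive spleen and the WT counterparts of lung, IL-15 spleen and naive spleen, 4 of each. The titles number the libraries of each group as replicates 1 to 4. Which tumour was used, whether IL-15 was given to mice or to isolated cells and at what dose, how the KO was made, strain, age, sex and whether each library is a separate animal were not stated in the labels or protocols read. P-values therefore measure only the spread between these libraries, part of which may be technical. Tissue, tumour and IL-15 treatment differ together between the groups, so their parts in any difference below cannot be told apart.

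NK cells are lymphocytes that kill infected and transformed cells with perforin and granzymes and that secrete interferon-γ. FcRγ is an adaptor with an immunoreceptor tyrosine-based activation motif (ITAM) that in mouse NK cells carries signals from the Fc receptor CD16 and from NKp46. IL-15 signals through a receptor that shares the IL-2 receptor β and common γ chains, acts through JAK kinases and STAT5, and sustains NK cell survival, growth and division. NK cells recirculate between blood and tissues under the control of the transcription factor KLF2, sphingosine-1-phosphate receptors and chemokine receptors.

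RNA was measured as poly(A) RNA by bulk sequencing, and levels are given as CPM, counts scaled to a common normalised library total, in replicate order 1 to 4. Library totals were 26749593, 26602600, 24950973 and 25570811 counts in KO lung and 23668508, 29808154, 30200109 and 28526435 counts in KO IL-15 spleen. Of the 16 other libraries, WT lung replicate 1 and KO naive spleen replicate 1 were shallow, at 9774684 and 9683382 counts. Pairs of libraries correlated at r = 0.969 to 0.973 within KO lung and 0.983 to 0.990 within KO IL-15 spleen, and at 0.877 to 0.897 between the groups, over log2 CPM of 14275 tested genes. The deleted gene, Fcer1g (GRCm38, chr1:171229572-171234365), had 16.2, 14.9, 12.8 and 13.1 CPM in KO lung, against 5.97, 3.92, 8.09 and 4.61 CPM in KO IL-15 spleen, a log2 change of 1.34 ± 0.25 (SE, n = 4 libraries a group, adjusted p = 1.24e-04). The corresponding WT groups averaged 594 CPM in lung and 274 CPM in IL-15 spleen, so all 8 KO libraries matched their labelled genotype. Here and below each log2 change is KO lung over KO IL-15 spleen with its SE, for n = 4 libraries a group. The SE comes from a fit in which all 24 libraries share the estimate of spread. A mean CPM followed by ± is given with the SD of the 4 libraries of its group. A gene is said to rise or fall where its p, adjusted over all tested genes, was under 0.05.

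The NK identity of both groups was checked against 10 markers, all of which were detected. Their summed level was 12960 to 14770 CPM in KO lung and 8414 to 9053 CPM in KO IL-15 spleen (exact permutation test, two-sided, p = 0.0286, the smallest that 4 libraries against 4 allow; 0.0468 adjusted over 18 marker lists), with a mean of 19240 CPM in KO naive spleen. Gzma had the widest gap in means of the 10 markers, at 4584 CPM in KO lung and 1808 CPM in KO IL-15 spleen. In the edgeR test 7 of the 10 rose, while Klrb1c, Klrd1 and Il2rb did not pass (adjusted p = 0.508, 0.934 and 0.203). In bulk samples fewer cells of a type and less RNA per cell cannot be told apart. Of the 18 marker lists, 11 gave an adjusted p of 0.0468 (higher in KO lung for 10, lower for monocytes and macrophages), while T cell, plasma cell, dendritic cell, mast cell, erythroid, alveolar type 2 and endothelial sums gave 0.0735 to 0.943. Several of these sums rest on 1 abundant gene while other members were higher in KO lung by edgeR's adjusted p under 0.05, which 23.3% of all genes tested reached. T cell markers were higher for 6 of 12 (Cd3e, Cd3d, Cd3g, Cd4, Cd8a and Cd8b1). Cd3e averaged 4.79 CPM in KO lung and 0.541 CPM in KO IL-15 spleen, and Cd4, Cd8a and Cd8b1, which mark the main T cell subsets, were at 0 in every KO IL-15 spleen library and at most 1.49, 1.52 and 1.21 CPM in a KO lung library. Trbc1 made up most of the T cell sum, with means of 203.1 CPM in KO lung and 152.8 CPM in KO IL-15 spleen, and did not pass the test (adjusted p = 0.0683). Endothelial markers were higher for 8 of 9, among them Cdh5, Tek and Cldn5, which were at 0 in every KO IL-15 spleen library, while Pecam1 averaged 79.7 CPM in KO lung and 125.9 CPM in KO IL-15 spleen. Alveolar type 2 markers were higher for 5 of 7 tested, among them the surfactant genes Sftpc, Sftpb and Sftpa1, also at 0 in KO IL-15 spleen, while Napsa averaged 35.8 CPM in KO lung and 59.5 CPM in KO IL-15 spleen. Dendritic cell markers were higher for 4 of 5 tested, while Itgax, the largest of that sum, averaged 469.7 CPM in KO lung and 458.1 CPM in KO IL-15 spleen. The 5 alveolar macrophage markers found in the table summed to 18.6 to 42.4 CPM in KO lung and were at 0 in KO IL-15 spleen, and neutrophil markers summed to 11.3 to 46.9 CPM in KO lung and 0.150 to 0.390 CPM in KO IL-15 spleen. Airway epithelial markers summed to 97.0, 449.6, 26.6 and 142.8 CPM in KO lung, so they varied widely between lung libraries, and to 5.31 to 9.20 CPM in KO IL-15 spleen. Melanocytic markers summed to 7.95, 36.4, 57.0 and 29.2 CPM in KO lung and to 0.3003 to 1.27 CPM in KO IL-15 spleen. The 10 monocyte and macrophage markers in the table summed lower in KO lung, at 556.9 to 1031 CPM against 1049 to 1444 CPM in KO IL-15 spleen, of which Ccr2, a chemokine receptor that NK cells also transcribe, made up means of 467.4 CPM in KO lung and 1278 CPM in KO IL-15 spleen. Other members divided: Lyz2, lysozyme of myeloid cells, had 132, 573, 308 and 238 CPM in KO lung and 0.0375, 0.154, 0 and 0.0649 CPM in KO IL-15 spleen, while Cd68 averaged 9.48 CPM in KO lung and 24.0 CPM in KO IL-15 spleen. The part of such cells in the gene results was not tested.

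**Figure D1:**
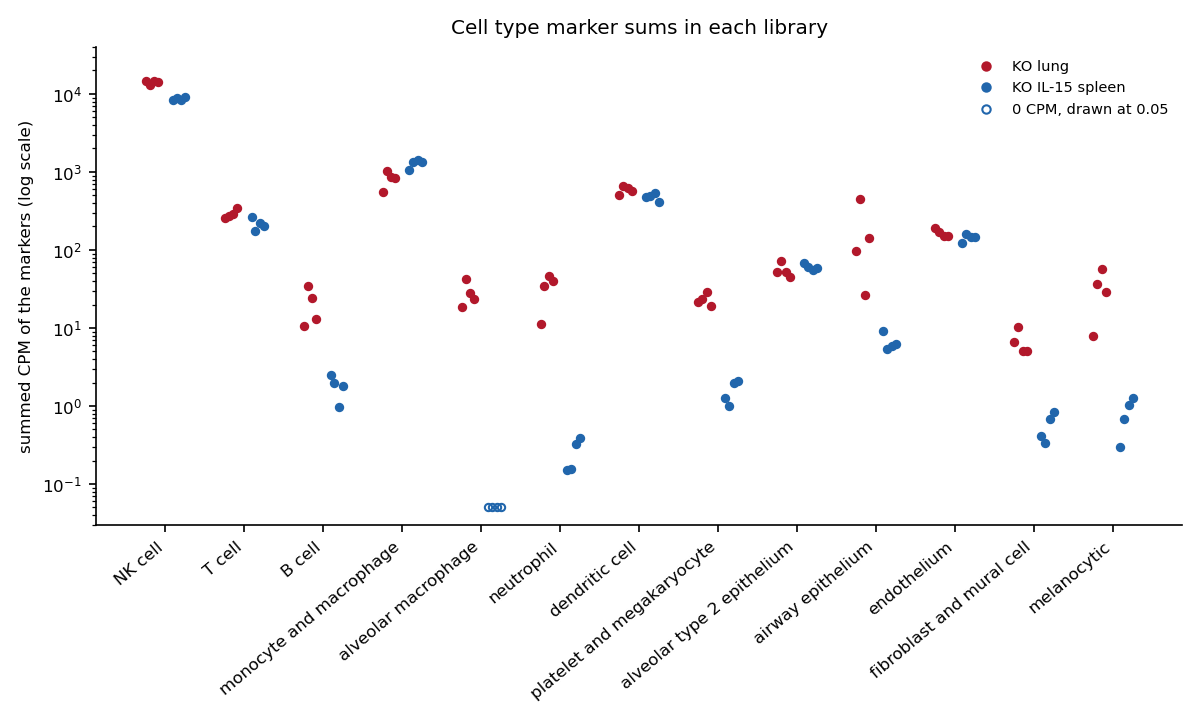
Summed CPM of marker genes (vertical axis, log scale) for 13 cell types (horizontal axis) in each library; red points are KO lung and blue points KO IL-15 spleen, with open points at 0. NK markers sit highest in both groups, while alveolar macrophage, neutrophil, airway and melanocytic sums are found mostly in the 4 lung libraries, where the airway sum runs from 26.6 to 449.6 CPM.

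Of 14275 genes tested, 3328 were higher in KO lung than in KO IL-15 spleen, which is 23.3% of those tested, and 2925 were lower, 20.5%. The difference was at least 2-fold for 1661 of the genes that rose and 1251 of those that fell. In 5952 of the 6253 genes called, no KO lung library overlapped any KO IL-15 spleen library. The calling itself favours this, since both rest on the same libraries. The median log2 change of all tested genes was 0.026. Genes averaging at least 5 CPM over the 8 libraries, with no overlap between the groups, were ranked by the fitted log2 change, leaving out predicted genes, pseudogenes and receptor segments. The 15 with the largest rise are known from epithelial, endothelial, melanocytic or myeloid cells and lay near or at 0 in KO IL-15 spleen. Scgb1a1, the secretoglobin of airway club cells, had 78.3, 373, 11.6 and 91.6 CPM in KO lung and 0, 0.0309, 0 and 0 CPM in KO IL-15 spleen, in the order of the airway marker sums, to which it belongs. Cav1 and Cdh5, caveolin and the cadherin of endothelium, were at 0 in every KO IL-15 spleen library and at least 783-fold and 625-fold higher in KO lung, taking 3 counts over the 4 spleen libraries as a floor. Dct, an enzyme of melanin synthesis, had 4.07, 15.8, 23.2 and 13.2 CPM in KO lung and 0 in KO IL-15 spleen, at least 572-fold higher. The remaining genes of this kind were Lyz2, Cyp2f2, Tgfbi, Il1b, Chi3l3, Ear2, Hpgd, Mpeg1, Cldn5, S100a9 and Aqp1. Clec7a, the β-glucan receptor dectin-1 of myeloid cells, is listed as a polymorphic pseudogene in the annotation and was left out for that, but was at 0 in KO IL-15 spleen and at least 702-fold higher in KO lung (named after its values were seen). The 15 genes with the largest fall by the same ranking were of another kind: Cenpf, Hmmr, Aspm, Nek2, Ccnb1, Kif2c, Kif14, Sgol1 and Fam64a act in mitosis, Gen1, Neil3 and Pif1 in DNA repair or replication, and the others were Ak4, Ccl1 and Mxd3. Lists of genes with known roles in lymphocytes are described below, beside the level in KO naive spleen, which received no IL-15. Each count of list members that rose or fell is to be read beside the 23.3% and 20.5% of all genes tested.

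**Figure D2:**
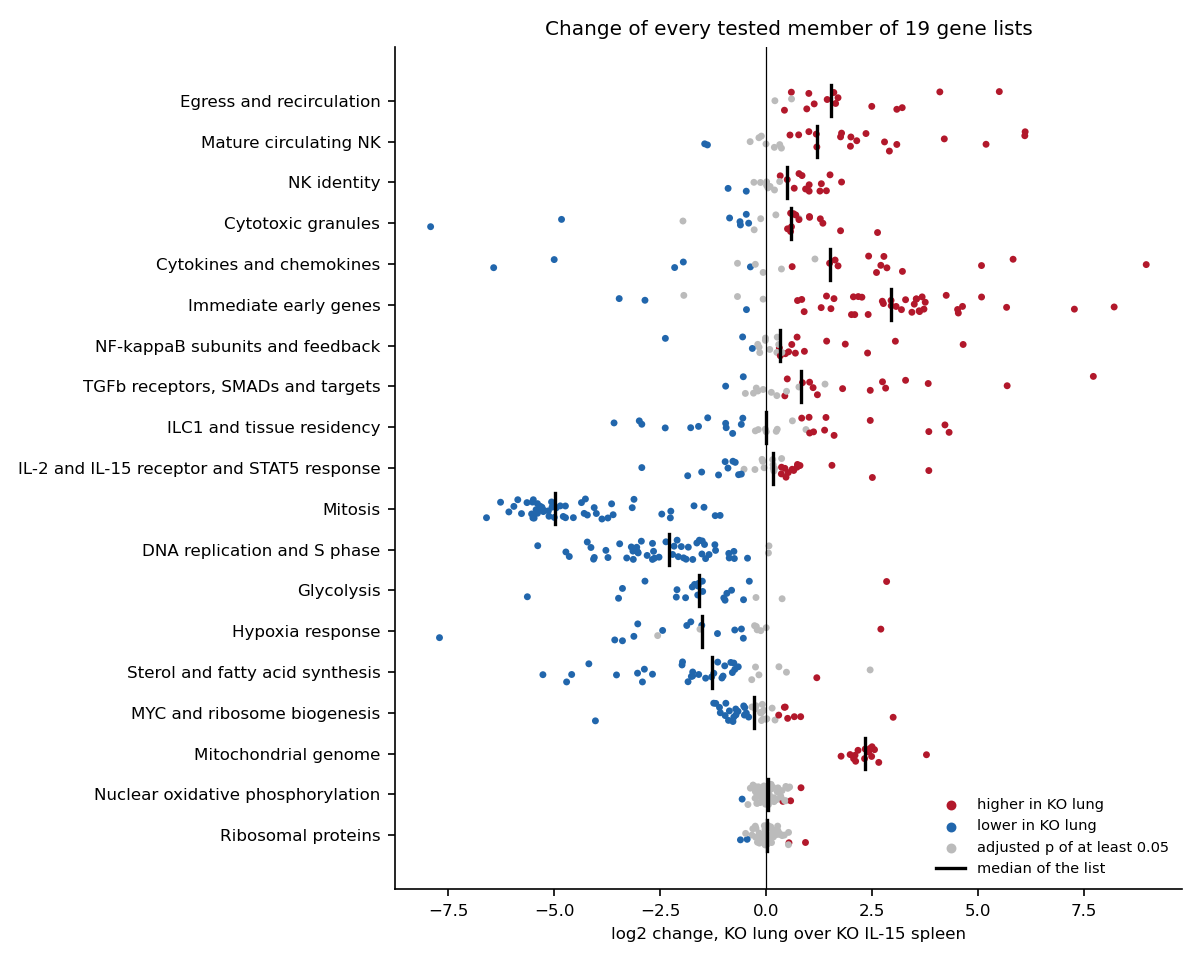
log2 change of KO lung over KO IL-15 spleen (horizontal axis) for every tested member of 19 gene lists (vertical axis); red points rose, blue points fell, grey points had an adjusted p of at least 0.05, and black bars are list medians. Mitosis genes lie furthest left (median -4.97) and immediate early genes furthest right (median 2.95), while nuclear oxidative phosphorylation and ribosomal protein genes lie about 0; a gene with no count in a group is drawn at its fitted change, which is no bound.

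Genes of recirculation were higher in KO lung. Of 16 members tested in that list, 14 rose and none fell, with a median log2 change of 1.52. Klf2 (GRCm38, chr8:72319033-72321656), the transcription factor that keeps lymphocytes quiescent and recirculating, had 1328, 1329, 1309 and 1249 CPM in KO lung, against 30.9, 25.1, 25.8 and 33.01 CPM in KO IL-15 spleen. The groups lay far apart, with a log2 change of 5.51 ± 0.20 (adjusted p = 5.02e-17), and KO naive spleen averaged 678 CPM, below lung and far above IL-15 spleen. S1pr5, the sphingosine-1-phosphate receptor by which NK cells leave bone marrow and lymph nodes, had 264, 228, 229 and 199 CPM in KO lung and 26.5, 22.2, 31.2 and 28.3 CPM in KO IL-15 spleen (log2 change 3.09 ± 0.15, adjusted p = 7.73e-15). Here KO naive spleen was highest, at 461 CPM. Cxcr4, the receptor for CXCL12, which retains cells in bone marrow and tissue, had 473, 468, 457 and 585 CPM in KO lung and 26.1, 24.5, 32.2 and 32.6 CPM in KO IL-15 spleen (log2 change 4.10 ± 0.23, adjusted p = 1.92e-13). Unlike the S1P receptor, Cxcr4 was far under the lung level in KO naive spleen, at 68.8 CPM. Among 11 chemokine receptors tested, 6 rose and 3 fell (median log2 change 1.45). The 6 include Cxcr2, a member of the neutrophil marker list, which was at 0 in KO IL-15 spleen. Cx3cr1, the fractalkine receptor of mature NK cells and of monocytes, had 104, 86.8, 85.2 and 50.95 CPM in KO lung and 1.95, 2.25, 2.99 and 1.69 CPM in KO IL-15 spleen (log2 change 5.19 ± 0.37). Ccr2, the CCL2 receptor, went the other way, with 405, 397, 492 and 576 CPM in KO lung and 1029, 1333, 1419 and 1329 CPM in KO IL-15 spleen (log2 change -1.45 ± 0.16, adjusted p = 4.09e-08). Cxcr3, a receptor for interferon-induced chemokines, averaged 44.8 ± 8.62 CPM in KO lung and 85.9 ± 6.6 CPM in KO IL-15 spleen, both under the 189.6 CPM of KO naive spleen.

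Markers of mature circulating NK cells were also higher in KO lung: 18 of 27 tested rose and 2 fell, with a median log2 change of 1.2. Cma1, a serine protease of the mast cell chymase family that mouse NK cells transcribe, had 298, 245, 293 and 221 CPM in KO lung and 3.34, 3.33, 4.21 and 4.42 CPM in KO IL-15 spleen (log2 change 6.11 ± 0.25, adjusted p = 5.64e-16). Its level in KO naive spleen was 255 CPM, close to that of lung. Mast cell and basophil markers summed to 2.26 to 3.07 CPM in KO lung and 2.22 to 3.90 CPM in KO IL-15 spleen. Of these 7 markers, 4 were at 0 in all 8 libraries, Gata2 was higher in KO lung, and Cpa3 and Mcpt8 were lower. Which cells the Cma1 transcripts came from was not tested. Ly6c2, a surface antigen of mature NK cells and monocytes, averaged 369 ± 27.1 CPM in KO lung and 19.9 ± 3.56 CPM in KO IL-15 spleen. S100a4 and Lgals3, a calcium-binding protein and a galectin, were the members that fell: S100a4 averaged 45.9 ± 7.61 CPM in KO lung and 125 ± 17.7 CPM in KO IL-15 spleen. Of 21 immature NK genes, 9 were higher (42.9%) and 5 lower (23.8%), the latter near the 20.5% of all genes tested (median log2 change 0.21). Kit, the stem cell factor receptor, had 58.6, 75.9, 64.7 and 59.6 CPM in KO lung and 232, 329.7, 333 and 280.1 CPM in KO IL-15 spleen (log2 change -2.18 ± 0.18, adjusted p = 2.24e-10), a clear separation. Il7r, the IL-7 receptor α chain, was higher in KO lung instead, at 47.8, 67.9, 87.8 and 75.5 CPM against 16.3, 20.2, 25.5 and 29.6 CPM in KO IL-15 spleen (log2 change 1.61 ± 0.23). Of the called genes that rose, KO naive spleen lay nearer to KO lung than to KO IL-15 spleen on the log2 scale for 12 of 14 recirculation genes and 13 of 18 mature NK genes, against 39.1% of all genes that rose.

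**Figure D3:**
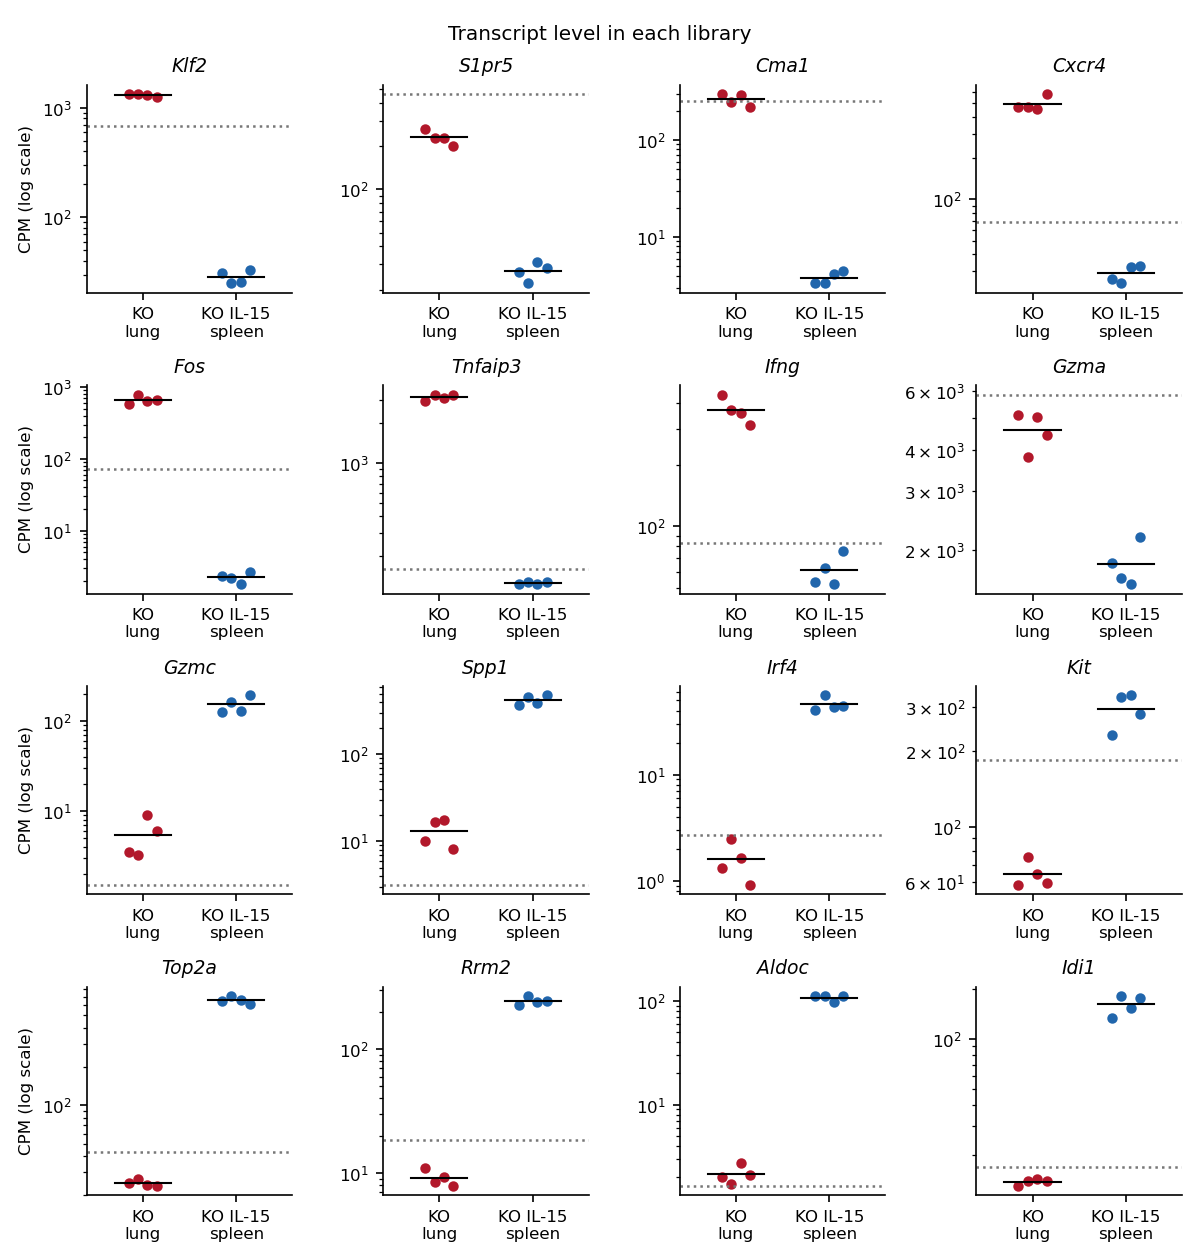
CPM of 16 genes (vertical axis, log scale, a separate scale for each panel) in the 4 KO lung libraries (red, left) and the 4 KO IL-15 spleen libraries (blue, right); black bars are group means and the dotted line is the KO naive spleen mean. No KO lung library overlaps a KO IL-15 spleen library in these panels, and the naive mean lies nearest to lung for Cma1, Top2a and Aldoc but nearest to IL-15 spleen for Tnfaip3 and Ifng.

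Genes of NK identity rose more often than they fell, 13 against 2 of 23 tested, with a median log2 change of 0.502. Nkg7, a cytotoxic granule membrane protein, averaged 1564 ± 147 CPM in KO lung and 582 ± 56.2 CPM in KO IL-15 spleen (log2 change 1.43 ± 0.14). Among the ITAM adaptors and their partners, 11 of 23 rose and 4 fell (median log2 change 0.34). Tyrobp, which encodes DAP12, had 621, 547, 673 and 676 CPM in KO lung and 253, 246, 242 and 277 CPM in KO IL-15 spleen (log2 change 1.31 ± 0.18, adjusted p = 1.64e-06). Cd247, the CD3ζ chain, which like FcRγ associates with NKp46, had 211, 172, 195 and 192 CPM in KO lung and 84.4, 98.2, 100.4 and 97.2 CPM in KO IL-15 spleen (log2 change 1.02 ± 0.14, adjusted p = 1.65e-06). Fcgr3, which encodes CD16, a receptor that in mice needs FcRγ at the cell surface, was lower in KO lung, at 61.2, 50.3, 61.9 and 64.2 CPM against 89.7, 115, 115 and 122 CPM in KO IL-15 spleen (log2 change -0.89 ± 0.20, adjusted p = 8.20e-04). So the receptor and these adaptors moved in opposite directions while the groups did not overlap for any of them. In the list of ITAM and calcium signalling genes 19 of 44 rose and 5 fell (median log2 change 0.35). Orai1, the calcium channel subunit, averaged 75.8 ± 3.79 CPM in KO lung and 18.9 ± 1.48 CPM in KO IL-15 spleen, and Lcp2, the adaptor SLP-76, averaged 146 ± 5.91 CPM in KO lung and 224 ± 8.002 CPM in KO IL-15 spleen. Of 12 Ly49 receptor genes tested, 5 rose and 1 fell (median log2 change 0.49), but these genes are near-identical and reads may be split between them.

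NK transcription factors changed in both directions, 20 of 38 higher and 4 lower (median log2 change 0.41). Tbx21, which encodes T-bet, a factor of NK maturation, had 491, 461, 496 and 416 CPM in KO lung and 158, 129.8, 119.8 and 134 CPM in KO IL-15 spleen (log2 change 1.78 ± 0.13, adjusted p = 1.27e-11). Irf8 had 2655, 2048, 2146 and 2087 CPM in KO lung and 454, 451, 404 and 432 CPM in KO IL-15 spleen (log2 change 2.36 ± 0.12, adjusted p = 3.99e-14), and its level in KO naive spleen, 455 CPM, was close to that of IL-15 spleen. Irf4, a related factor induced by antigen and cytokine signals in lymphocytes, showed the reverse, with 1.32, 2.5, 1.65 and 0.917 CPM in KO lung and 40.5, 55.5, 43.1 and 44.5 CPM in KO IL-15 spleen (log2 change -4.84 ± 0.33, adjusted p = 4.78e-12). Bhlhe40, a repressor that acts in activated lymphocytes, averaged 1298 ± 32.4 CPM in KO lung and 326 ± 9.23 CPM in KO IL-15 spleen.

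Granule genes divided by granzyme. Of 26 granule genes tested, 14 rose and 7 fell, with a median log2 change of 0.58. Gzma had 5080, 3809, 5032 and 4416 CPM in KO lung and 1828, 1640, 1576 and 2187 CPM in KO IL-15 spleen (log2 change 1.34 ± 0.17, adjusted p = 6.66e-07). Gzmb, the granzyme that activates caspases, was lower in KO lung, at 1385, 1117, 1086 and 1045 CPM against 1423, 2019, 1712 and 1881 CPM in KO IL-15 spleen (log2 change -0.60 ± 0.17, adjusted p = 0.00441). The highest lung library lay just under the lowest IL-15 spleen library for Gzmb, and KO naive spleen averaged 446 CPM, under both groups. Gzmc (GRCm38, chr14:56231401-56234656), a granzyme of the same cluster as Gzmb, had 3.51, 3.26, 8.96 and 5.92 CPM in KO lung and 126, 164, 129.5 and 192 CPM in KO IL-15 spleen (log2 change -4.82 ± 0.44, adjusted p = 1.93e-09). Gzmd, its neighbour, had no count in KO lung and was at least 38.4-fold lower there, at 0.638, 1.05, 1.45 and 1.53 CPM in KO IL-15 spleen; reads can be shared within this cluster of similar genes. Serpinb9, an inhibitor of granzyme B, averaged 886 ± 87.8 CPM in KO lung and 364 ± 46 CPM in KO IL-15 spleen.

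Cytokine and chemokine genes were higher in KO lung for 13 of 23 tested (56.5%) and lower for 5 (21.7%). The median log2 change was 1.5, and 20.5% of all genes tested fell. Ifng had 441, 372, 359 and 314 CPM in KO lung, against 53.5, 62.4, 52.1 and 75.6 CPM in KO IL-15 spleen (log2 change 2.61 ± 0.19, adjusted p = 1.95e-11), and KO naive spleen averaged 82.8 CPM. Ccl5, a chemokine that recruits leukocytes, had 5002, 4087, 4740 and 4011 CPM in KO lung and 839.9, 766, 827 and 896 CPM in KO IL-15 spleen (log2 change 2.42 ± 0.18). Vegfa, the endothelial growth factor, had 234, 207, 249 and 309 CPM in KO lung and 39.7, 25, 52.6 and 35.4 CPM in KO IL-15 spleen (log2 change 2.71 ± 0.23). Spp1 (GRCm38, chr5:104435118-104441050), which encodes osteopontin, was the reverse. It had 10.2, 16.7, 17.8 and 8.21 CPM in KO lung and 366, 460.5, 387 and 475 CPM in KO IL-15 spleen (log2 change -5.00 ± 0.26, adjusted p = 2.73e-14), and 3.17 CPM in KO naive spleen. Ccl1, a CCR8 ligand, was at most 0.319 CPM in a KO lung library and had 13.4, 15.7, 11.97 and 13.6 CPM in KO IL-15 spleen. Mif averaged 48.7 ± 6.5 CPM in KO lung and 188 ± 18.4 CPM in KO IL-15 spleen. Ccl6, a chemokine of myeloid cells, was counted among those that rose, with means of 25.1 ± 8.26 CPM in KO lung, where Lyz2 was also found, and 0.435 ± 0.105 CPM in KO IL-15 spleen. Of 21 death ligands and TNF superfamily members, 5 were higher and 5 lower, 23.8% each, near the 23.3% and 20.5% of all genes tested (median log2 change 0.005). Fasl, the ligand of the death receptor Fas, had 384, 318, 365 and 388 CPM in KO lung and 85.7, 91.1, 96.03 and 106 CPM in KO IL-15 spleen (log2 change 1.94 ± 0.11, adjusted p = 8.24e-14). Tnfrsf9, the costimulatory receptor 4-1BB, averaged 122 ± 10.6 CPM in KO lung and 439.9 ± 43.6 CPM in KO IL-15 spleen, and Tnfsf10, the ligand TRAIL, averaged 13.8 ± 0.926 CPM in KO lung and 47.3 ± 7.76 CPM in KO IL-15 spleen. Thus FasL transcripts rose while TRAIL transcripts fell.

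Most immediate early genes rose: 37 of 43 tested were higher in KO lung and 3 were lower, with a median log2 change of 2.95. Fos (GRCm38, chr12:85473890-85477273), a component of the AP-1 transcription factor, had 582, 781, 641 and 659 CPM in KO lung, against 2.33, 2.16, 1.81 and 2.66 CPM in KO IL-15 spleen (log2 change 8.22 ± 0.26, adjusted p = 1.51e-17). KO naive spleen averaged 72.97 CPM, between the groups. Dusp1, a phosphatase that turns off MAP kinases, had 679, 707, 657 and 650.1 CPM in KO lung and 15.2, 11.9, 13.6 and 11.9 CPM in KO IL-15 spleen (log2 change 5.68 ± 0.21), and Zfp36, which destabilises cytokine mRNAs, averaged 552 ± 46.5 CPM in KO lung and 48.8 ± 3.18 CPM in KO IL-15 spleen. The members that fell were Egr2, Egr3 and Dusp6. Egr2, a zinc finger factor induced by calcium signals in lymphocytes, had 11.7, 10.2, 8.17 and 6.33 CPM in KO lung and 63.03, 76.5, 61.97 and 62.5 CPM in KO IL-15 spleen (log2 change -2.86 ± 0.27, adjusted p = 2.30e-09), so Egr2 moved opposite to Fos. Among NF-κB subunits and feedback genes 13 of 26 rose and 3 fell (median log2 change 0.33). Tnfaip3, which encodes A20, an ubiquitin-editing enzyme that limits NF-κB, had 2967, 3281, 3112 and 3243 CPM in KO lung and 123, 127, 124 and 128 CPM in KO IL-15 spleen (log2 change 4.65 ± 0.19, adjusted p = 5.64e-16). Nfkbia, the inhibitor IκBα, averaged 470.4 ± 40.9 CPM in KO lung and 89.3 ± 9.7 CPM in KO IL-15 spleen. Of 24 RGS and cyclic AMP regulators, 10 rose (41.7%) and 5 fell (20.8%), the latter near the 20.5% of all genes tested (median log2 change 0.081). Rgs1, which dampens chemokine receptor signals, had 606, 627, 563 and 574 CPM in KO lung and 28.04, 28.4, 33.2 and 37.2 CPM in KO IL-15 spleen (log2 change 4.22 ± 0.16), while Ptger2, a prostaglandin E2 receptor, averaged 1.62 ± 0.369 CPM in KO lung and 14.1 ± 0.0917 CPM in KO IL-15 spleen. Among genes that rose, KO naive spleen was nearer to KO IL-15 spleen than to KO lung for 31 of 37 immediate early genes and 12 of 13 NF-κB genes. The same held for 2028 of all 3328 genes that rose.

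A promoter of this group is shown because its gene rose and it holds the full palindrome TGACGTCA, the site of the cyclic AMP response factor CREB. Dusp1, 250 bases before to 50 after its start, lies at chr17:26508423-26508722 on the minus strand of GRCm38.p6 (RefSeq), and capitals mark the palindrome.
Dusp1: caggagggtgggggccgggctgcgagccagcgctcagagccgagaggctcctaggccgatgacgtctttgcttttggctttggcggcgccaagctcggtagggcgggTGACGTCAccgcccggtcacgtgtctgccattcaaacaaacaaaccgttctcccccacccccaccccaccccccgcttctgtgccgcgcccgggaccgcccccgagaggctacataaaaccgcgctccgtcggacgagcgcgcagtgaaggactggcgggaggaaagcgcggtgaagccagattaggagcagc
The palindrome was found in the promoters of 5 of 34 immediate early genes with a promoter in the table, 14.7%, against 2.03% of 27025 genes. The other 4 were Btg2, Ppp1r15a, Maff and Plk2. A match describes letters and is not evidence of binding.

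TGFβ pathway genes rose in 14 of 26 cases and fell in 2, with a median log2 change of 0.82. The largest rises of this list were those of Smad6 and Eng (log2 changes 7.72 and 5.69). Whether these transcripts came from NK cells or from other lung cells was not tested. Smad7, the inhibitory SMAD that TGFβ induces, had 182, 192, 185 and 178 CPM in KO lung and 27.1, 28.1, 26.1 and 28.2 CPM in KO IL-15 spleen (log2 change 2.75 ± 0.16, adjusted p = 2.71e-13). Tgif1, a SMAD corepressor, averaged 122 ± 6.07 CPM in KO lung and 17.2 ± 1.71 CPM in KO IL-15 spleen. Genes of type 1 innate lymphoid cells and tissue residency were split, 11 of 31 higher and 12 lower, with a median log2 change of 0.005. The members that rose with the smallest p (Rgs1, Rgs2, Socs3 and Cd69) are also induced on activation, and Cd69, which retains cells in tissue by binding the S1P receptor, averaged 94.1 ± 8.07 CPM in KO lung and 35.3 ± 6.35 CPM in KO IL-15 spleen. Itga1, the CD49a chain of resident cells, averaged 6.61 ± 1.08 CPM in KO lung and 12.8 ± 1.28 CPM in KO IL-15 spleen. The other integrins of this list were divided. Itgae and Itga2 rose (log2 changes 2.46 and 1.38), while Itgav and Itgb3 fell (-0.55 and -2.99). Of 16 integrin genes, 9 rose (56.25%) and 3 fell (18.75%), the latter near the 20.5% of all genes tested (median log2 change 0.64). Itgam, which encodes CD11b, had 623, 592, 464 and 536 CPM in KO lung and 125, 138, 173 and 116 CPM in KO IL-15 spleen (log2 change 2.00 ± 0.17). Itgb3, the integrin β3 chain, had 28.1, 39.6, 34.2 and 27.9 CPM in KO lung and 235, 263, 269.8 and 264 CPM in KO IL-15 spleen (log2 change -2.99 ± 0.13, adjusted p = 1.45e-15). CD11b was near its KO naive spleen level of 526 CPM in lung, and integrin β3 near its naive level of 34.8 CPM. Checkpoint receptors and ectonucleotidases showed 6 of 22 higher (27.3%) and 4 lower (18.2%), also near the shares of all genes tested (median log2 change 0.15). Adora2a, an adenosine receptor, had 282, 276, 275 and 273 CPM in KO lung and 116, 105, 97.8 and 99.7 CPM in KO IL-15 spleen (log2 change 1.40 ± 0.10). Lag3, an inhibitory receptor, had 7.31, 8.7, 7.78 and 4.17 CPM in KO lung and 32.7, 28.6, 28.2 and 25.2 CPM in KO IL-15 spleen (log2 change -2.04 ± 0.28, adjusted p = 2.16e-06), and Entpd1, the ectonucleotidase CD39, averaged 63.3 ± 14.02 CPM in KO lung and 26.5 ± 2.92 CPM in KO IL-15 spleen. The adenosine receptor and CD39 were thus higher and Lag3 lower in KO lung.

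Genes of the IL-2 and IL-15 receptors and the STAT5 response changed in both directions, 13 of 34 higher and 10 lower, with a median log2 change of 0.17. Cish, a STAT5-induced inhibitor of IL-15 signals, had 22.6, 26.8, 21.9 and 20.96 CPM in KO lung and 72.5, 66.8, 63.4 and 61.5 CPM in KO IL-15 spleen (log2 change -1.52 ± 0.18, adjusted p = 1.37e-07). Il2ra, the high-affinity IL-2 receptor chain CD25, had 2.35, 4.31, 3.17 and 2.79 CPM in KO lung and 20.1, 30.7, 23.3 and 22.2 CPM in KO IL-15 spleen (log2 change -2.93 ± 0.49, adjusted p = 2.34e-05). Bcl2, which protects from apoptosis downstream of STAT5, had 256, 282, 279 and 301 CPM in KO lung and 441, 519.9, 496 and 463 CPM in KO IL-15 spleen (log2 change -0.78 ± 0.12). These members were lower in KO lung, with no overlap of libraries. Socs3, a feedback inhibitor of STAT3 signals, and Pim3, a kinase, were higher instead: Socs3 averaged 315 ± 38.9 CPM in KO lung and 21.96 ± 1.6 CPM in KO IL-15 spleen, and Pim3 averaged 246 ± 23.3 CPM in KO lung and 43.2 ± 5.94 CPM in KO IL-15 spleen. For 9 of the 10 members that fell, KO naive spleen was nearer to KO lung than to KO IL-15 spleen, against 57.3% of all genes that fell.

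Cell division genes were lower in KO lung without exception in the mitosis list, where all 50 members tested fell, with a median log2 change of -4.97. Top2a (GRCm38, chr11:98992943-99024189), the topoisomerase that untangles sister chromosomes, had 24.9, 26.5, 23.7 and 23.7 CPM in KO lung and 651, 705, 659.7 and 609.7 CPM in KO IL-15 spleen (log2 change -4.73 ± 0.21, adjusted p = 1.84e-15). Ccnb1, cyclin B1, which drives entry into mitosis, had 1.08, 0.846, 2 and 0.958 CPM in KO lung and 76.8, 91.2, 75.1 and 83.7 CPM in KO IL-15 spleen (log2 change -6.07 ± 0.36, adjusted p = 3.93e-13). In both genes KO naive spleen was also low, with means of 43.1 and 3.23 CPM. In the list of DNA replication and S phase genes 48 of 50 fell, with a median log2 change of -2.28. Rrm2, the ribonucleotide reductase subunit that limits nucleotide supply, had 10.9, 8.54, 9.39 and 7.96 CPM in KO lung and 226, 266, 237 and 243 CPM in KO IL-15 spleen (log2 change -4.72 ± 0.18, adjusted p = 1.19e-16). KO naive spleen was nearer to KO lung for all 50 mitosis genes and 47 of the 48 S phase genes. The share was 57.3% over all genes that fell. Genes of quiescence and CDK inhibition rose in 18 of 32 cases and fell in 5, with a median log2 change of 0.71. Btg1, an antiproliferative factor, averaged 2318 ± 150.2 CPM in KO lung and 684 ± 42.01 CPM in KO IL-15 spleen, and Tob1, of the same family, averaged 90.9 ± 5.21 CPM in KO lung and 16.1 ± 1.86 CPM in KO IL-15 spleen. Cdkn2c, the CDK inhibitor p18, fell, with 15.7, 14.2, 17.7 and 15.2 CPM in KO lung and 126, 101, 101 and 102 CPM in KO IL-15 spleen, as did Cdkn3, a phosphatase that is itself expressed in dividing cells.

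Promoters of S phase genes are shown because their genes fell together and because they hold letters bound by E2F factors (TTTGGCGC, TTTCCCGC or TTTGGCGG, on either strand, where sites may overlap). These forms were found in 16 of 40 S phase genes with a promoter in the table, against 647 of 27025 genes (2.39%). Mcm3, a subunit of the replicative helicase, lies with its promoter at chr1:20820263-20820562 and Mcm6, another subunit, at chr1:128359656-128359955, both on the minus strand of GRCm38.p6; they were taken after the matches were seen, because each holds 2, in capitals, as does E2f2.
Mcm3: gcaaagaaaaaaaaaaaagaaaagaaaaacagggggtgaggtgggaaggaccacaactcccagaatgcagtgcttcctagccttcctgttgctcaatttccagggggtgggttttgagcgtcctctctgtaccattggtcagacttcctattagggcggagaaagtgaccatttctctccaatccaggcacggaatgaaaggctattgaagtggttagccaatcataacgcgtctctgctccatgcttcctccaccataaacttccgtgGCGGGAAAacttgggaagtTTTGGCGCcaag
Mcm6: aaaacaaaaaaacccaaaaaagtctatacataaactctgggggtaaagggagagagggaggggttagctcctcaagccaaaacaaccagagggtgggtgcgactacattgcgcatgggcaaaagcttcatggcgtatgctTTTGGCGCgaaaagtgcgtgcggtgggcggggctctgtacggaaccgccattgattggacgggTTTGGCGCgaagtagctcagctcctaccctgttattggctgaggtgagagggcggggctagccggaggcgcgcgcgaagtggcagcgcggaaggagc
Mcm3 had 46.1, 51.3, 53.8 and 49.4 CPM in KO lung and 239, 236, 203 and 247 CPM in KO IL-15 spleen (log2 change -2.20 ± 0.10, adjusted p = 3.62e-15). Mcm6 had 151, 142, 154 and 150 CPM in KO lung and 344, 371, 313 and 349 CPM in KO IL-15 spleen (log2 change -1.21 ± 0.10, adjusted p = 1.83e-10). Neither gene's groups overlapped, and both genes moved less than Rrm2.

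Glycolysis genes were lower in KO lung, 20 of 23 tested, with 1 higher and a median log2 change of -1.59. Aldoc (GRCm38, chr11:78322968-78327781), the aldolase C isozyme, had 2.04, 1.73, 2.74 and 2.12 CPM in KO lung and 110.1, 110.5, 96.7 and 111 CPM in KO IL-15 spleen (log2 change -5.63 ± 0.20, adjusted p = 5.94e-17). Pgk1, phosphoglycerate kinase, had 133, 122, 142 and 140.1 CPM in KO lung and 988, 967, 856 and 1075 CPM in KO IL-15 spleen (log2 change -2.86 ± 0.13). Slc16a3, the lactate exporter MCT4, averaged 9.19 ± 1.62 CPM in KO lung and 102 ± 5.38 CPM in KO IL-15 spleen. These genes lay near their KO naive spleen levels in lung, which were 1.67, 172 and 6.94 CPM. Hypoxia response genes fell in 13 of 21 cases, and 1 rose, with a median log2 change of -1.52. Pdk1, which diverts pyruvate from mitochondria, had 11.8, 12.4, 16.3 and 15.2 CPM in KO lung and 147, 140.3, 149.9 and 145 CPM in KO IL-15 spleen (log2 change -3.39 ± 0.19), and Bnip3, a mitophagy receptor, averaged 10.5 ± 2.05 CPM in KO lung and 85.9 ± 11.2 CPM in KO IL-15 spleen. The member that rose was Vegfa, described above, opposite in direction to the 13 that fell.

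Sterol and fatty acid synthesis genes fell in 28 of 35 cases and 1 rose, with a median log2 change of -1.28. Hmgcs1, which makes HMG-CoA for cholesterol synthesis, had 32.2, 40.7, 38.6 and 33.5 CPM in KO lung and 215, 248, 222 and 243 CPM in KO IL-15 spleen (log2 change -2.68 ± 0.12, adjusted p = 1.33e-15). Idi1, an isomerase of the mevalonate pathway, had 13.2, 13.97, 14.4 and 14.04 CPM in KO lung and 133, 179.8, 152 and 177 CPM in KO IL-15 spleen (log2 change -3.53 ± 0.17, adjusted p = 4.94e-15). Neither enzyme's groups overlapped, and both were low in KO naive spleen as well, at 49.3 and 17.1 CPM. Acss2, which makes acetyl-CoA from acetate, was the member that rose, with a mean of 98.8 ± 3.56 CPM in KO lung and 43.05 ± 0.891 CPM in KO IL-15 spleen. The letters CACCCCAC, a sterol regulatory element bound by SREBP factors, were found on either strand in the promoters of 2 of 24 of these genes with a promoter in the table, Hmgcs1 and Acat2, which is 8.33% against 3.30% of 27025 genes. The promoter of Hmgcs1 at chr13:119690101-119690400 (GRCm38.p6, plus strand, RefSeq) is shown with the element in capitals.
Hmgcs1: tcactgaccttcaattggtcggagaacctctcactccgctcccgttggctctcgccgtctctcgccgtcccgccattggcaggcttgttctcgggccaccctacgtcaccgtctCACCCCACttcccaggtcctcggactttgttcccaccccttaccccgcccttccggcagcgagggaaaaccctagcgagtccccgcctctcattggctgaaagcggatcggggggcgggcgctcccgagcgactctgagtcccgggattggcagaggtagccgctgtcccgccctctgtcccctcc

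MYC targets and ribosome biogenesis genes fell in 19 of 40 cases and rose in 7, with a median log2 change of -0.29. Myc had 91.2, 89.8, 88.3 and 79.9 CPM in KO lung and 185, 186, 151 and 158 CPM in KO IL-15 spleen (log2 change -0.96 ± 0.12, adjusted p = 2.70e-07). Mxd1, a partner of MAX that opposes MYC, had 456, 399, 481 and 513 CPM in KO lung and 60.1, 54.5, 60.9 and 55.3 CPM in KO IL-15 spleen (log2 change 3.00 ± 0.12, adjusted p = 6.86e-16), the opposite direction. Among tRNA synthetases and ATF4 response genes 14 of 33 fell and 9 rose (median log2 change -0.32). Psat1 and Phgdh, enzymes of serine synthesis, averaged 34.2 ± 3.11 and 43.1 ± 4.96 CPM in KO lung and 96.7 ± 6.51 and 100.3 ± 15.5 CPM in KO IL-15 spleen. Atf4 itself, a stress-induced transcription factor, rose, with 477, 507, 549 and 531 CPM in KO lung and 206, 172, 184 and 186 CPM in KO IL-15 spleen (log2 change 1.47 ± 0.11), and Ddit3, its target CHOP, averaged 77.8 ± 10.6 CPM in KO lung and 16.1 ± 2.89 CPM in KO IL-15 spleen. Of 52 cytosolic ribosomal protein genes, 2 rose and 2 fell, with a median log2 change of 0.028.

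Transcripts of the mitochondrial genome were higher in KO lung, all 15 tested, with a median log2 change of 2.34. They made up 8.66%, 10.7%, 8.49% and 8.83% of counts in KO lung, against 0.810%, 2.5%, 2.82% and 2.44% in KO IL-15 spleen (exact permutation test, two-sided, p = 0.0286). The first IL-15 replicate had the lowest share. The share averaged 5.85% in KO naive spleen, where libraries ran from 1.18% to 9.29%. mt-Rnr2, the large ribosomal RNA, had 11800, 10970, 11060 and 12250 CPM in KO lung and 473, 846, 947 and 1072 CPM in KO IL-15 spleen (log2 change 3.79 ± 0.28, adjusted p = 3.99e-11), and mt-Co1, a subunit of cytochrome oxidase, had 24570, 32110, 25250 and 24820 CPM in KO lung and 2434, 7325, 8171 and 6951 CPM in KO IL-15 spleen (log2 change 2.10 ± 0.41). Of 58 nuclear genes of oxidative phosphorylation, 3 rose and 1 fell, and the median log2 change was 0.049.

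Interferon-stimulated genes were divided, 16 of 48 higher and 15 lower, with a median log2 change of 0.23. Irf7, the factor that amplifies type I interferon responses, had 158, 157, 157 and 177 CPM in KO lung and 39.2, 29.6, 35.3 and 30.1 CPM in KO IL-15 spleen (log2 change 2.27 ± 0.12, adjusted p = 8.24e-14). Irgm2, an interferon-γ-induced GTPase, had 17.7, 15.3, 16.7 and 21.6 CPM in KO lung and 44.3, 57.6, 55.8 and 49.3 CPM in KO IL-15 spleen (log2 change -1.54 ± 0.17, adjusted p = 3.66e-08). So Irf7 and this GTPase parted, although Ifng transcripts were higher in KO lung. Of 18 genes of MHC class I and peptide loading, 7 rose and 3 fell (median log2 change 0.25). Tap1, the peptide transporter, averaged 231 ± 7.77 CPM in KO lung and 338 ± 29.8 CPM in KO IL-15 spleen, and H2-K1, a class I heavy chain whose reads may be shared with close relatives, averaged 4247 ± 161 CPM in KO lung and 2616 ± 79.1 CPM in KO IL-15 spleen. Among 8 GIMAP GTPases of lymphocytes 4 rose and 2 fell (median log2 change 0.28).

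Heat shock and chaperone genes rose in 13 of 34 cases and fell in 5, with a median log2 change of 0.21. Hspa1a, the inducible HSP70, had 433, 114, 321 and 40.7 CPM in KO lung and 7.62, 3.95, 6.87 and 4.12 CPM in KO IL-15 spleen (log2 change 5.33 ± 0.56, adjusted p = 2.36e-08). Its close copy Hspa1b, from which its reads cannot be fully separated, had 792, 214, 629 and 84.95 CPM in KO lung and 9.05, 5.06, 11.3 and 7.27 CPM in KO IL-15 spleen (log2 change 5.72 ± 0.66). Lung replicates 1 and 3 were high and 4 was lowest for both, yet no lung library overlapped IL-15 spleen. The KO naive spleen means were 0.271 and 3.37 CPM. Dnajb1, the co-chaperone of HSP70, averaged 298 ± 89.4 CPM in KO lung and 77.1 ± 4.43 CPM in KO IL-15 spleen, whereas Cct6a, a subunit of the chaperonin that folds actin and tubulin, averaged 43.1 ± 5.18 CPM in KO lung and 63.2 ± 5.75 CPM in KO IL-15 spleen.

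The same contrast was fitted in WT, where no library is shared with the KO groups, to ask whether the loss of FcRγ altered it. In WT 3392 genes were higher in lung and 2934 lower. Of the genes higher in KO lung 85.2% were also higher in WT lung, which is 83.6% of the WT genes; of those lower in KO lung 81.1% were also lower in WT lung, 80.9% of the WT genes. The KO and WT changes correlated at r = 0.900 across the 14275 genes, which are not independent replicates. A direct test of the difference, the interaction of genotype and contrast, called 13 genes, 0.0911% of those tested, of which 1 had a higher change in KO and 12 a lower. Without adjustment 484 of the 14275 genes had p under 0.05, a smaller share than the 0.05 that chance alone would give. The counts rested partly on single libraries and on the tool: leaving out KO lung replicate 2 gave 6 lower, leaving out KO lung replicate 1 or WT IL-15 spleen replicate 2 gave 3 or 2 higher, and DESeq2 gave 8 higher and 24 lower.

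**Figure D4:**
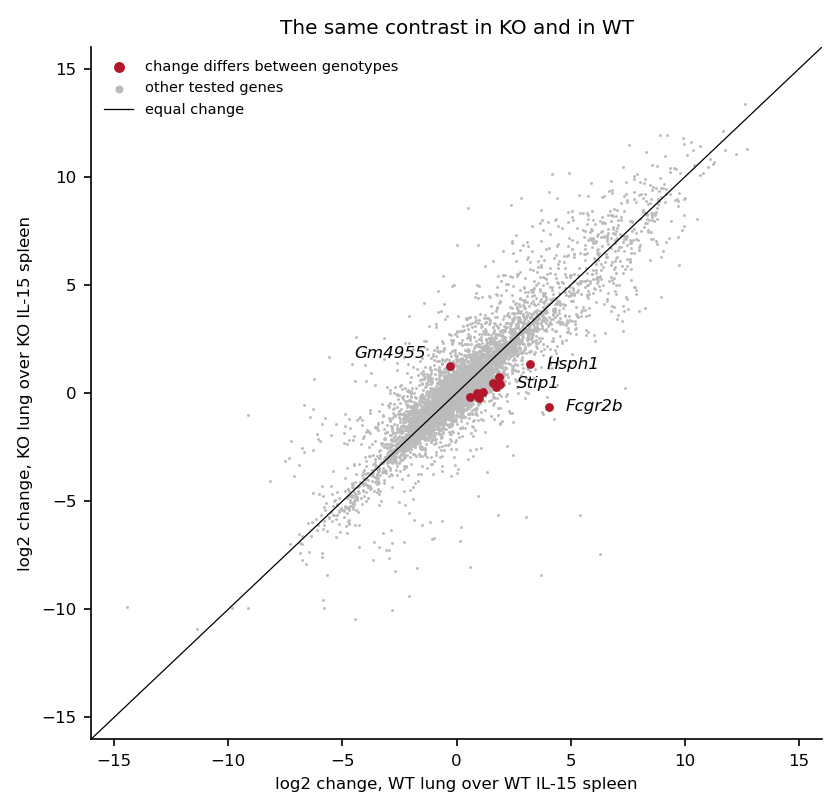
log2 change of lung over IL-15 spleen in KO (vertical axis) and in WT (horizontal axis) for each of 14275 tested genes; the line marks equal change and red points are the 13 genes whose changes differed. Most genes lie along the line (r = 0.900), and Fcgr2b lies farthest from it among the red points, with -0.63 in KO and 4.04 in WT.

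Fcgr2b, the inhibitory Fc receptor of mouse leukocytes, gave the widest difference among the 13 genes. It had 6.31, 5.48, 5.13 and 5.38 CPM in KO lung and 7.32, 8.61, 8.62 and 10.03 CPM in KO IL-15 spleen, and 51.5, 69.6, 60.3 and 73 CPM in WT lung and 5.3, 1.87, 3.6 and 4.59 CPM in WT IL-15 spleen. Only the WT lung libraries were high, so the KO change of -0.63 ± 0.21 differed from the WT change of 4.04 by -4.67 ± 0.31 on the log2 scale (adjusted p = 6.25e-10). The KO change alone lost its call without KO IL-15 spleen replicate 4 and with a length and GC offset (adjusted p up to 0.0759). Lyz2, of myeloid cells that also express this receptor, averaged 313 ± 188 CPM in KO lung and 94.9 CPM in WT lung. Which cells the Fcgr2b transcripts came from was not tested. Fcgr2b (GRCm38, chr1:170960558-170976547) lies on the same chromosome as Fcer1g, as does Gm4955 (chr1:173468509-173491041), a predicted gene named after its values were seen because it was the only gene with a higher change in KO. Of the other genes among the 13, Bpnt1 (chr1:185332149-185357777) and Hspd1 (chr1:55077835-55088243) also lie on that chromosome, farther from Fcer1g than Fcgr2b and Gm4955. The share of all tested genes that lie on that chromosome is not given here, and a part of position was not tested. Gm4955 had 2.44, 3.3, 2.78 and 2.79 CPM in KO lung and 0.826, 1.3, 1.39 and 1.23 CPM in KO IL-15 spleen, against means of 42.04 CPM in WT lung and 51.5 CPM in WT IL-15 spleen. It was thus low in both KO groups.

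Of the 12 genes with a lower change in KO, 7 belong to the heat shock and chaperone list of 34 tested, against 0.0911% of all genes called. They were Stip1, Hsp90ab1, Ahsa1, Hspd1, Hsph1, Ptges3 and Hsp90aa1, and the genes outside the list were Fcgr2b, St13, Ahsa2, Bpnt1 and Gm7816. Hsp90aa1 and Gm7816 lie outside the rule for named genes and were added after their values were seen. Stip1, which couples HSP70 to HSP90, had 197, 154, 126 and 175 CPM in KO lung and 114, 130, 116 and 126 CPM in KO IL-15 spleen, and 390, 571, 341 and 468 CPM in WT lung and 125, 119, 113 and 115 CPM in WT IL-15 spleen. The difference of changes was -1.49 ± 0.24 on the log2 scale (adjusted p = 0.00878). Hsp90ab1, the constitutive HSP90, had 2140, 1818, 1914 and 1858 CPM in KO lung and 1992, 2096, 1801 and 2096 CPM in KO IL-15 spleen, and 3597, 4459, 3375 and 3877 CPM in WT lung and 2040, 2109, 1816 and 1938 CPM in WT IL-15 spleen (difference of changes -1.001 ± 0.148, adjusted p = 0.00222). In both genes WT lung stood above the other 3 groups. Ahsa1, which activates the HSP90 ATPase, gave a difference of -1.07 ± 0.16 (adjusted p = 0.00222), Hspd1, the mitochondrial HSP60, -1.05 ± 0.19 (adjusted p = 0.0116), and St13, an HSP70 partner, -0.89 ± 0.16 (adjusted p = 0.0114). The calls of Hspd1 and St13 were lost without KO lung replicate 2 (adjusted p = 0.0507 for each), which left 6 genes with a lower change in KO. Hsph1, of the HSP110 family, gave -1.91 ± 0.38 (adjusted p = 0.0452), a call that was lost in 14 of 16 fits that left out a library (adjusted p up to 0.181). Hspa1a and Hspa1b, with WT lung means of 413 and 843 CPM, did not pass this test (differences -1.58 ± 0.70 and -1.64 ± 0.80).

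**Figure D5:**
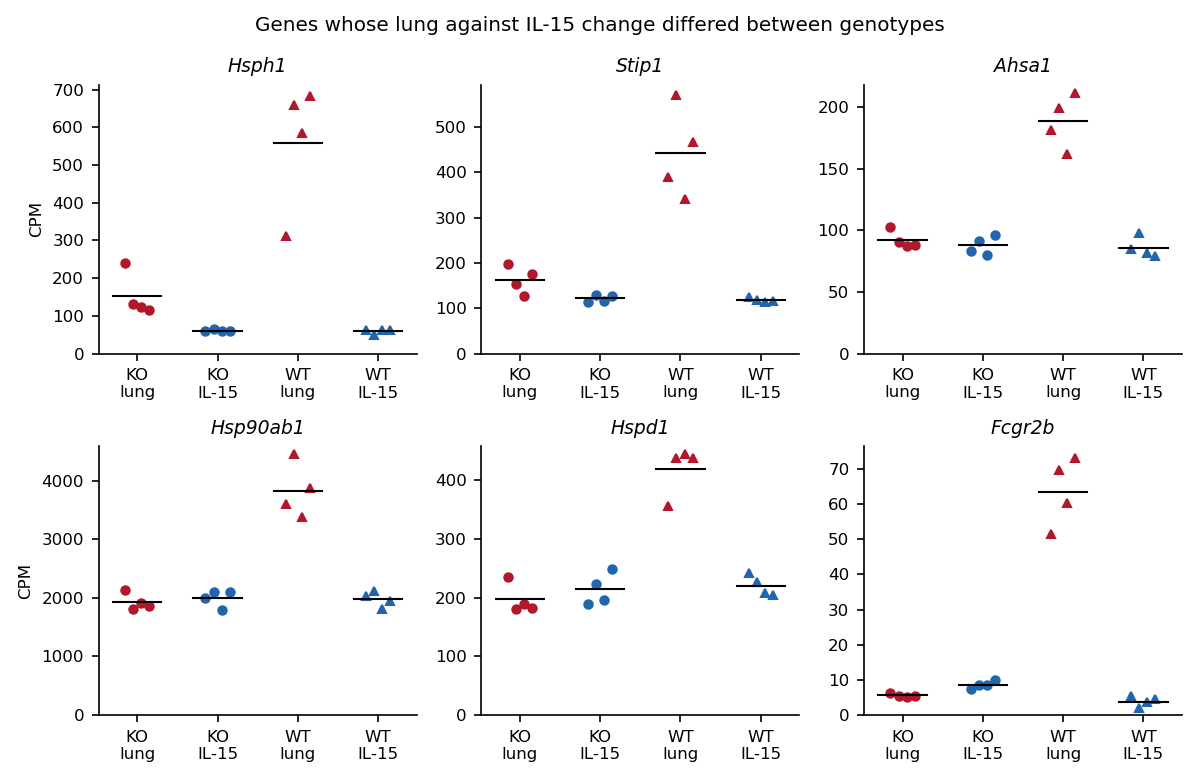
CPM (vertical axis, from 0) of 6 genes in each library of KO lung, KO IL-15 spleen, WT lung and WT IL-15 spleen (horizontal axis); circles are KO, triangles WT, red lung and blue IL-15 spleen, and black bars are group means. For Hsph1, Stip1, Ahsa1, Hsp90ab1, Hspd1 and Fcgr2b the 4 WT lung libraries lie above the libraries of the other 3 groups.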

How the data were processed

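Poly(A) RNA of NK cells was prepared with an RNeasy Plus Micro kit and a NEBNext Ultra II Directional kit, per the labels' protocols. The submitters' processing notes name cutadapt 1.9, STAR 2.5.2a, RSEM 1.2.30 and GRCm38; neither the annotation release nor the strand setting was found in the labels. The authors deposited RSEM expected counts per gene, which were rounded to whole numbers here (5.47% of values were not whole). All 24 libraries, in 6 groups of 4 taken from the labels, entered edgeR 4.0.16 in R 4.3.3: filtering by filterByExpr, which kept 14275 genes, TMM scaling, glmQLFit and the contrast KO lung minus KO IL-15 spleen tested with glmQLFTest, with Benjamini-Hochberg adjustment over all genes and a threshold of 0.05. The genotype difference was the interaction of the same fit. SE is the size of the log2 change divided by the square root of F, and CPM are on TMM-scaled totals. Summed markers and the mitochondrial share were compared by an exact permutation test. In simulated data for KO lung against KO IL-15 spleen (13643 genes), the groups were set equal except in 200 genes. There the fit recovered 28.36% of 1.5-fold, 65.67% of 2-fold and 81.82% of 4-fold changes, with 3.31% false calls. Far more genes were called in the data themselves, so these rates may not hold for them. Alternatives used DESeq2 1.42.0, limma 3.58.1, other filters and scalings, a replicate block and each library left out. The members, the 41 gene lists and the 18 marker lists were chosen with earlier results of these data known. Named genes were, by rule, Fcer1g, the 15 largest changes each way among called genes whose groups did not overlap and that averaged 5 CPM or more, up to 4 members each way of each list with the smallest p, and the 10 smallest interaction p each way; predicted genes, pseudogenes and receptor segments were skipped, and part of these are printed, since some items are not reported here. A share of naive levels compares log2(CPM + 0.5). Promoters are RefSeq's, GRCm38.p6. Intervals cover the libraries only, and depth was 23668508 to 30200109 counts in the 8 libraries.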

Additional observations from a re-analysis of the deposited data

Results flagged for a closer look

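Of 332 sets of 4 libraries (each named gene in each group, the marker sums and the mitochondrial share), 18 held a library that stood apart from the other 3 of its group. Chance gives about 1 in 20. In KO lung, replicate 1 was high for Ahsa1 (102.8 CPM), Hspd1 (235.2 CPM), Hsph1 (239.2 CPM) and Irf8 (2655 CPM). Replicate 2 was high for the mitochondrial share (10.73%), mt-Co1 (32110 CPM) and Slc16a3 (11.6 CPM), and low for Rgs2 (473.0 CPM). Replicate 4 was high for Cxcr4 (585.4 CPM) and Irf7 (176.8 CPM). In KO IL-15 spleen, replicate 1 was high for Cdkn2c (125.8 CPM) and Mxd3 (37.43 CPM), replicate 2 for Egr2 (76.47 CPM), and replicate 4 for Ak4 (16.75 CPM), while replicate 3 was low for Aldoc (96.66 CPM). Aqp1 (0.03754 CPM in replicate 1), Mpeg1 (0.02962 CPM in replicate 3) and Scgb1a1 (0.03086 CPM in replicate 2) were detected in 1 IL-15 spleen library each.

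The change between lung and IL-15 spleen differed between KO and WT by the interaction test for 11 named genes. On the log2 scale, KO minus WT, the differences were -4.669 for Fcgr2b, -1.905 for Hsph1, -1.486 for Stip1, -1.171 for Bpnt1, -1.121 for Ahsa2, -1.067 for Ahsa1, -1.053 for Hspd1, -1.001 for Hsp90ab1, -0.89 for St13, -0.781 for Ptges3 and 1.527 for Gm4955. KO lung replicate 1, which stood apart for Ahsa1, Hspd1 and Hsph1, was also the KO lung library with the highest Hspa1a (432.6 CPM, against 488.3 CPM in WT lung replicate 1); without it 14 genes had a lower change in KO than in WT, against 12 with it.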

How the results depend on the processing

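Beside the main setting, 18 alternatives were run for the change in KO and 26 for the difference from WT. Genes higher and lower in KO lung numbered 3328 and 2925, and 2928 to 3132 and 2565 to 2757 with a library left out. A fit of only the 8 libraries compared gave 3985 and 3790, one without the shallow libraries 3813 and 3415, and limma voom 4497 and 4208. Of 140 named genes that were called, 137 kept the call throughout, while Stip1 (adjusted p up to 0.18), Fcgr2b (up to 0.0759) and Ahsa2 (up to 0.0567) lost it in places. Most were named for large changes or small p, so this says little about the other calls. Of all 3328 higher and 2925 lower calls, 3029 and 2393 were kept with a length and GC offset. Without KO IL-15 spleen replicate 2, 2853 and 2549 were kept. The 1 gene with a higher change in KO than WT became 8 with DESeq2, 12 with voom, 2 without a filter, 2 with the 16 libraries only, 5 with a length and GC offset, 3 without the shallow WT lung replicate 1 and KO naive spleen replicate 1 (chosen after seeing the data) and 1 to 3 with a library left out (3 without KO lung replicate 1, 2 without WT IL-15 spleen replicate 2); the 12 with a lower change became 24 with DESeq2, 53 with voom and 6 to 14 with a library left out, 6 of them without KO lung replicate 2. The cause was not tested. Of 11 named genes called for the difference from WT, 5 kept the call throughout: Hsph1 lost it in 17 alternatives (adjusted p up to 0.181), Ptges3 in 15 (up to 0.13), Ahsa2 in 4 with a library left out (up to 0.0639), Hspd1 and St13 without KO lung replicate 2 (0.0507) and Gm4955 with voom (0.0806). Same-numbered libraries did not deviate together (correlations -0.0582 to 0.0226), and a replicate block gave 3286 higher and 2914 lower, and 1 and 9 for the difference from WT. The mitochondrial share differed by 6.51 to 7.26 percentage points with a library left out. Transcripts at 0 in a group are limited by depth.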

Other observations

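Genes of the circadian clock were among those that differed: 8 of 18 tested rose in KO lung and 1 fell, with a median log2 change of 0.75. Per1, a core repressor of the clock that glucocorticoids and cyclic AMP also induce, had 494, 406, 439 and 418 CPM in KO lung and 36.6, 37.6, 41.7 and 34.6 CPM in KO IL-15 spleen (log2 change 3.55 ± 0.18, adjusted p = 2.00e-14). Its groups were far apart and KO naive spleen averaged 27.6 CPM. Nr1d2, another clock repressor, averaged 83.9 ± 4.79 CPM in KO lung and 33.4 ± 1.95 CPM in KO IL-15 spleen.

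Of 30 receptors for IL-12, IL-18 and other cytokines, 13 rose (43.3%) and 6 fell (20.0%), the latter near the 20.5% of all genes tested (median log2 change 0.21). Ifngr1, an interferon-γ receptor chain, averaged 1508 ± 94.04 CPM in KO lung and 577 ± 60.8 CPM in KO IL-15 spleen. Il12rb1, an IL-12 receptor chain, averaged 35.1 ± 2.48 CPM in KO lung and 73.9 ± 5.97 CPM in KO IL-15 spleen. Nutrient transporters fell in 8 of 19 cases (42.1%) and rose in 4 (21.05%), beside 20.5% and 23.3% of all genes tested (median -0.55). Tfrc, the transferrin receptor that imports iron, had 30.8, 32.7, 35.4 and 39.1 CPM in KO lung and 98.5, 138, 118 and 123 CPM in KO IL-15 spleen (log2 change -1.79 ± 0.24). Slc3a2, the heavy chain of amino acid exchangers, averaged 264 ± 23.9 CPM in KO lung and 72.4 ± 4.68 CPM in KO IL-15 spleen, the opposite of its partner Slc7a5, which averaged 22.4 ± 2.59 CPM in KO lung and 55.4 ± 3.08 CPM in KO IL-15 spleen. Proteasome genes fell in 11 of 34 cases and rose in 2 (median -0.20), with Psmb9, an immunoproteasome subunit, at 83.2 ± 9.29 CPM in KO lung and 160.4 ± 15.8 CPM in KO IL-15 spleen. In the endoplasmic reticulum list 7 of 24 rose (29.2%) and 4 fell (16.7%), beside 23.3% and 20.5% of all genes tested (median -0.049), with Hspa5, the chaperone BiP, at 1220 ± 90.6 CPM in KO lung and 592 ± 44.9 CPM in KO IL-15 spleen. BCL2 family genes rose in 6 of 16 cases (37.5%) and fell in 3 (18.75%), the latter near the 20.5% of all genes tested (median 0.13). Pmaip1 and Bbc3, which encode the death-promoting proteins NOXA and PUMA, averaged 24.4 ± 1.92 and 59.3 ± 10.5 CPM in KO lung and 2.9 ± 0.362 and 24.5 ± 4.58 CPM in KO IL-15 spleen. Replication-dependent histone genes, whose mRNAs mostly lack poly(A) tails and are near-identical, rose in 14 of 58 cases and fell in 8; the share that rose was close to the 23.3% of all genes tested.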
